A study of Canis lupus familiaris with 4 samples.

Results

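To describe how cells labelled as HIF2α-depleted respond to low oxygen, the array labelled HIF2α-KD in hypoxia was compared with the array labelled HIF2α-KD in normoxia. These are 2 of the 4 arrays of the study, and the remaining 2 are the same comparison in control cells. All 4 RNAs came from MDCK strain II cells, a dog kidney epithelial line that polarizes and forms cysts in culture. Every culture was first held for 24 h in normoxia and then for a further 24 h at the labelled oxygen, which per the study's methods was 16% O2 for normoxia and 1% O2 for hypoxia. The groups were thus control cells (labelled wild type) in normoxia, control cells in hypoxia, HIF2α-KD cells in normoxia and HIF2α-KD cells in hypoxia, with 1 array in each. The study's methods state that HIF2α-KD cells were made by retroviral delivery of a short hairpin RNA from the RVH1-puro vector with puromycin selection, and that control cells were infected with a virus carrying an empty hairpin cassette, so the labelled wild type cells were not unmodified. The labels do not say which HIF2α-KD line was used, while the study's text names line HIF2α-KD#1 for its normoxic comparison. With 1 array per condition no difference has a replicate check, no p-value is given, and this small number of arrays bounds the precision of all values below.

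Hypoxia-inducible factors are made of an oxygen-regulated α subunit and the constant partner ARNT. In oxygenated cells prolyl hydroxylases of the EGLN family mark the α subunits for destruction by the VHL ubiquitin ligase. In hypoxia the α subunits escape this mark and activate genes of glucose uptake, glycolysis, vessel growth, matrix modification and mitophagy. HIF1α (*HIF1A*) and HIF2α (*EPAS1*) share many of these targets, and in the kidney HIF2α is best known for erythropoietin production by interstitial cells and for its role in renal carcinoma that has lost VHL.

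The knocked-down gene was examined first, as a check of the labels. *EPAS1* read 44.6 in control normoxia and 47.9 in HIF2α-KD normoxia, so its signal was not lower under the knockdown label in normoxia. It read 116 in control hypoxia and 32.6 in HIF2α-KD hypoxia. The hypoxia difference of *EPAS1*, on the scale log2(intensity + 16) used throughout, was therefore -0.40 under the HIF2α-KD label and 1.13 in control cells. A second *EPAS1* probe set read between 1 and 6.39 on the 4 arrays, which is within background. Only the hypoxic pair thus shows the lower signal that the knockdown label implies, and every direction below that uses the normoxic HIF2α-KD array carries this limit, for which reason it is called by its label.

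The 4 arrays had similar overall signal, with medians over all probe sets of 28.2 to 29.1. The brightest probe set with 1 gene symbol stood for each gene, which was kept where any array gave it at least 28.64, the middle value of the table. This left 9766 genes. Background was read from 63 dim reporter probe sets, whose 95th percentile lay between 20.6 and 27.2 across arrays. The hypoxia difference of these reporters on the HIF2α-KD arrays had an SD of 0.25 and a largest size of 0.70, and probe sets of the same gene differed from each other with a pooled SD of 0.24. A difference of at least 1 in size, which is 2-fold, was counted. All counted differences are thus larger than any reporter difference, but these reporters are dim and do not give the spread of brighter genes. Of the epithelial markers, 4 of 5 lay above the reporters' 95th percentile on every array, with *EPCAM* between 10064 and 11719, and the exception was *CDH1*, which passed it on 2 arrays. The summed epithelial signal was 30816 to 33031. Of 8 fibroblast markers 6 lay at background on all arrays, and of 6 endothelial markers 5 did. The fibroblast marker *PDGFRA* was higher in hypoxia, at 33.8 and 75.7 on the HIF2α-KD arrays and 31.5 and 145 on the control arrays, and whether this bears on other genes was not tested. Of 5 collecting duct and distal tubule markers, the cadherin *CDH16* (89.1 to 134) and *AQP3* (99.8 to 149) passed background on every array. *SCNN1A* did so on 3 arrays, whereas *AQP2* and *PAX8* were not above background on any array.

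On the HIF2α-KD arrays 135 genes (1.38% of the genes kept) were higher in hypoxia by 2-fold or more and 41 (0.42%) were lower by as much. The control arrays gave 297 such higher genes (3.04%) and 53 lower ones (0.543%). These are whole cultures, so a change in the number of cells of a kind and a change in RNA per cell cannot be told apart. The SD of the hypoxia difference over genes was 0.37 for HIF2α-KD and 0.45 for control. The median over genes was 0.02 for HIF2α-KD and 0.03 for control, with 53.1% of genes above 0 in the former and 53.2% in the latter. At 4-fold or more, 21 genes were higher and 4 were lower on the HIF2α-KD arrays. The counted genes were spread over the brightness range: 37 of the higher and 18 of the lower genes had a mean intensity below 100, 72 and 13 lay from 100 to below 1000, and 26 and 10 were at or above 1000.

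The highest-ranking gene was *ADM*, which encodes the vasodilator peptide adrenomedullin. It read 436 in normoxia and 5268 in hypoxia under the HIF2α-KD label, a difference of 3.55, and 397 and 9897 in control cells, a difference of 4.59. Both hypoxic arrays were thus far above both normoxic arrays, and the control hypoxic array was the highest. *PDK1*, the kinase that shuts off pyruvate dehydrogenase, followed with 303 and 2711 on the HIF2α-KD arrays (3.09) against 438 and 2956 in control cells (2.71). *EGLN3*, a prolyl hydroxylase that is itself a HIF target, was below background in normoxia at 19.1 and read 247 in hypoxia, which is at least 12-fold higher under the HIF2α-KD label, beside 25.5 and 380 in control cells. *ANKRD37*, an ankyrin repeat protein, read 122 and 958 on the HIF2α-KD arrays (2.82), and 118 and 1556 on the control arrays (3.55).

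**Figure D1:**
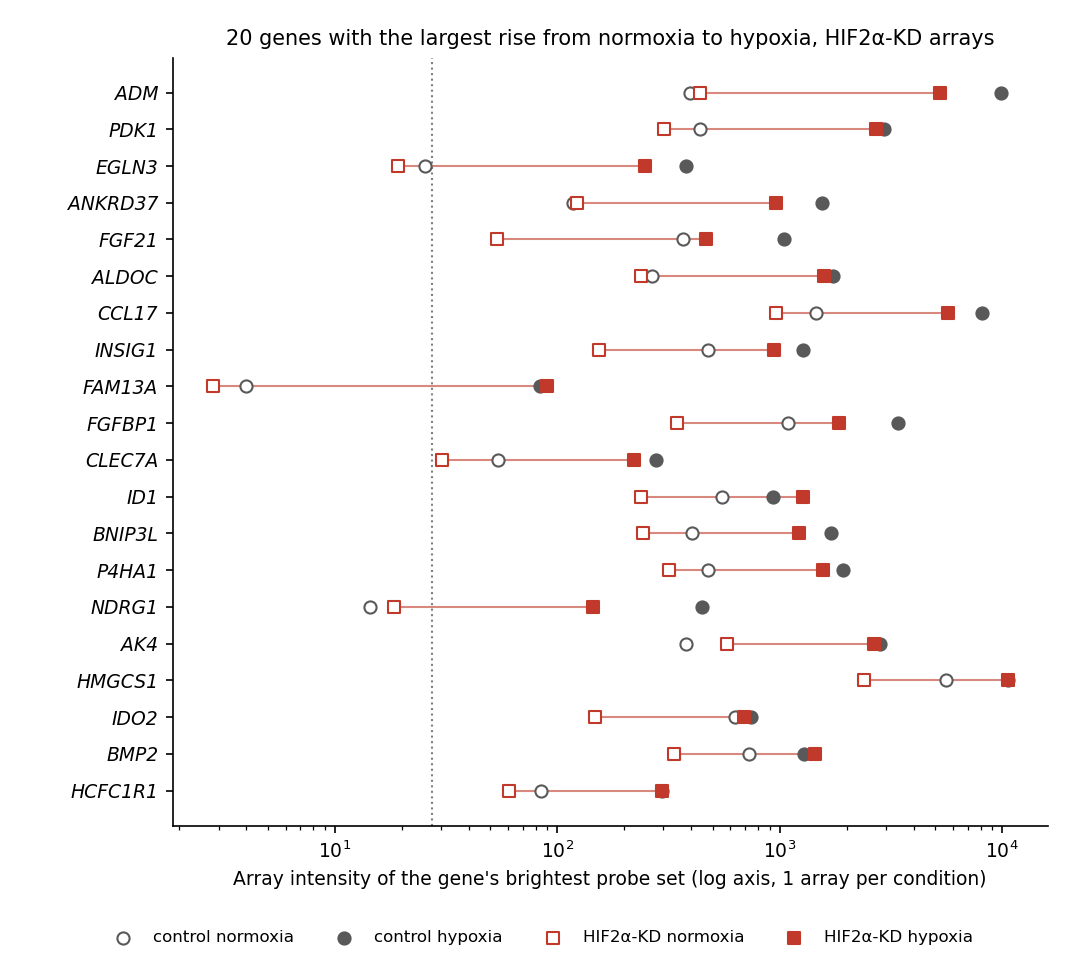
Array intensity (log axis, 1 array per condition) of the 20 genes with the largest hypoxia difference on the HIF2α-KD arrays, with open symbols for normoxia, filled symbols for hypoxia, circles for control, squares for HIF2α-KD, and a dotted line at 27.2, the highest reporter 95th percentile of the 4 arrays. For *ADM*, *PDK1* and *ALDOC* the 2 normoxic arrays lie close together and below both hypoxic arrays, whereas for *FGF21*, *INSIG1* and *IDO2* the open square lies well to the left of the other 3 symbols.

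Many genes of glucose uptake and glycolysis were higher in hypoxia. Of 21 listed genes 17 were kept, and these were above 0 on the HIF2α-KD arrays, with 7 reaching 2-fold and *PFKP* (0.13), *HK1* (0.15) and *HK2* (0.18) within the spread of probe sets, and their median was 0.77, beside 0.84 in control cells and 0.02 over all genes. *ALDOC*, an aldolase isoform, read 237 and 1577 under the HIF2α-KD label (2.65) and 266 and 1739 in control cells (2.64). *PFKL*, the liver type phosphofructokinase, went from 366 to 1431 (1.92), with 348 and 1284 in control cells. *PGK1*, phosphoglycerate kinase, read 3688 and 11611 (1.65), with 4012 and 13130 on the control arrays. In these genes each HIF2α-KD array matched the control array of the same oxygen closely, so the pairs are nearly superimposed.

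*PFKFB3*, which makes the allosteric activator of phosphofructokinase, differed more between the pairs, with 1461 and 4980 on the HIF2α-KD arrays (1.76) and 896 and 6706 on the control arrays (2.88). *GPI*, glucose phosphate isomerase, was 1.73 higher under the HIF2α-KD label and 1.81 higher in control cells. Smaller differences were seen for the glucose transporter *SLC2A1* (0.77), the lactate dehydrogenase *LDHA* (0.73), the enolase *ENO1* (0.58) and the mutase *PGAM1* (0.39). These 4 are read by probe sets whose intensities reach 9974 to 17502 in hypoxia, whereas the highest value on that array was 19271. The less bright probe sets of the same genes gave larger values, with 1.14 and 1.48 for *SLC2A1*, 1.51 to 2.04 for *ENO1*, 0.96 for *LDHA* and 0.59 for *PGAM1*. Over all 40 kept probe sets of the list, the median was 0.77 for the 11 with a mean intensity of at least 5000, 1.48 for the 9 from 500 to below 5000 and 1.18 for the 20 below 500. Of all 40, 23 were at least 2-fold higher. For these 4 genes the brightest probe set thus gave the smallest difference, and whether the brightest probe sets were near the top of their range was not tested.

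**Figure D2:**
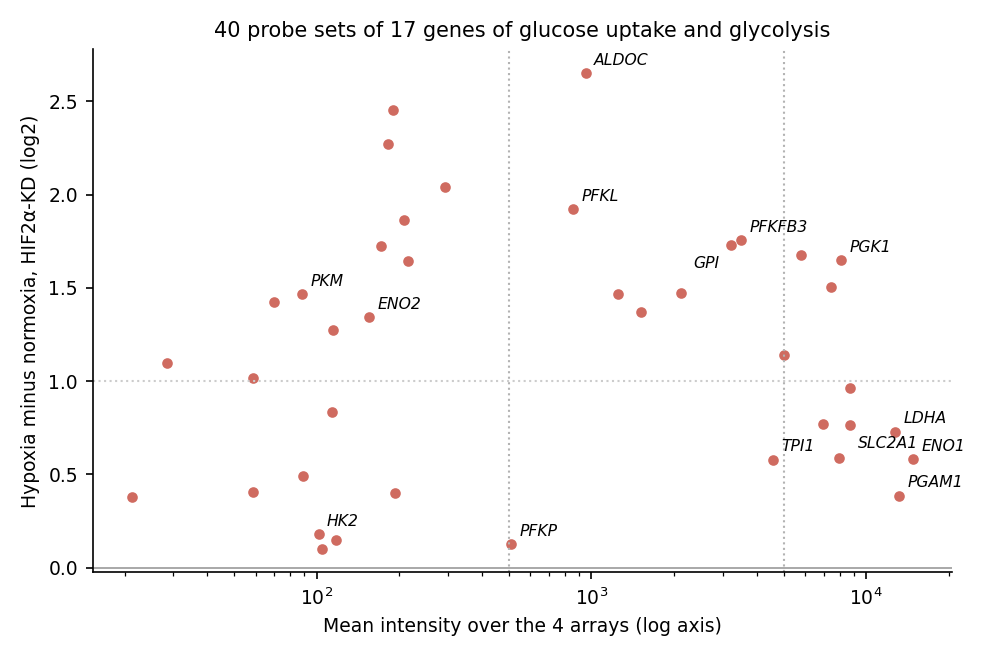
Hypoxia difference on the HIF2α-KD arrays (log2) against mean intensity over the 4 arrays (log axis) for the 40 kept probe sets of 17 genes of glucose uptake and glycolysis, each point being 1 probe set, with the gene name at the brightest probe set of some genes and dotted lines at 500, 5000 and a difference of 1. All points lie above 0, and those at 5000 or more have a median of 0.77, below the 1.48 of the probe sets from 500 to 5000.

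Of 12 genes of pyruvate, lactate and pH control 3 were at least 2-fold higher, namely *PDK1*, *SLC16A1* and *SLC16A3*. The list median was 0.29, beside 0.83 in control cells. The lactate carrier *SLC16A1* read 196 and 595 on the HIF2α-KD arrays (1.53) and 183 and 690 on the control arrays (1.83). *SLC16A3*, the lactate exporter of glycolytic cells, read 30.5 and 111, with 31.6 and 116 in control cells. Genes of pH control had smaller differences here than in control cells: *CA12*, a membrane carbonic anhydrase, had a difference of 0.63 against 1.31, and the bicarbonate carrier *SLC4A7* had 0.39 against 1.42. Glycogen genes did not follow, with 0 of 7 at 2-fold and a median of -0.01. Among the respiratory chain subunits of complexes I, II and III, 26 of 36 were below 0 with a median of -0.09 (-0.17 in control cells) and none reached 2-fold. The lowest of them was *NDUFS1*, a complex I subunit, at -0.54. Of 21 TCA cycle enzymes 12 were below 0 and 9 above it, with *DLAT*, a pyruvate dehydrogenase subunit, at 1.04 and *IDH2*, the mitochondrial NADP-dependent isocitrate dehydrogenase, at 0.98.

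Within the oxygen-sensing machinery the prolyl hydroxylases were higher. *EGLN1*, the main HIF prolyl hydroxylase, read 188 in normoxia and 674 in hypoxia under the HIF2α-KD label (1.76) and 224 and 928 in control cells (1.98). *HIF1A* was lower in hypoxia in both pairs by the same size, with 3503 and 2473 on the HIF2α-KD arrays and 3755 and 2651 on the control arrays, a difference of -0.50 in each. *VHL* (0.13) and *ARNT* (0.07) lay within the spread of probe sets. Over the 13 kept members of this list the median was 0.24 (0.34 in control cells), and *EGLN1* and *EGLN3* were the members at 2-fold.

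Of the genes that the study used to read the HIF response, *VEGFA*, the vascular growth factor, read 535 in normoxia and 2137 in hypoxia on the HIF2α-KD arrays (1.97) and 1447 and 3752 on the control arrays (1.36). Both HIF2α-KD arrays were therefore below the control array of the same oxygen, while the difference within the pair was larger under the HIF2α-KD label. *LOX*, which crosslinks collagen, read 452 and 668 (0.55), with 520 and 999 in control cells (0.92). Among 12 secreted and angiogenic genes 10 were above 0 with a median of 0.37 (0.38 in control cells), and *ADM* and *VEGFA* reached 2-fold. Among 9 collagen hydroxylases and crosslinkers 8 were above 0 with a median of 0.46. *P4HA1*, the catalytic subunit of collagen prolyl hydroxylase, was the member at 2-fold, with 319 and 1564 under the HIF2α-KD label and 476 and 1920 in control cells, and its 3 probe sets gave 2.24 to 2.29.

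Mitophagy and growth arrest genes gave 4 of 12 members at 2-fold with a median of 0.44 (0.49 in control cells). *BNIP3L*, a mitophagy receptor, read 244 and 1220 on the HIF2α-KD arrays (2.25) and 403 and 1706 on the control arrays (2.04). *NDRG1*, a stress-induced growth suppressor, was below background in normoxia at 18.4 and read 145 in hypoxia, which is at least 7.04-fold higher, beside 14.4 and 445 in control cells. Its hypoxic signal was thus the one that differed between the lines. *DDIT4*, an inhibitor of mTORC1 signalling, read 79.7 and 242 (1.43), with 167 and 403 in control cells (1.20). *BNIP3* and *CA9*, classical HIF targets, did not reach the intensity filter in any condition.

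Histone demethylases, transcription repressors and other hypoxia markers grouped with them gave 8 of 21 members higher by 2-fold or more and 1 lower by as much, with a median of 0.42 (0.70 in control cells). *KDM3A*, a histone H3K9 demethylase, read 296 and 664 under the HIF2α-KD label (1.12) and 299 and 860 in control cells (1.48). *AK4*, a mitochondrial adenylate kinase, had a difference of 2.16 against 2.85. The related repressors *BHLHE40* and *BHLHE41* went in opposite directions. *BHLHE40* read 1067 and 3076 (1.51), with 2248 and 5127 in control cells (1.18), whereas *BHLHE41* read 3706 and 1433 (-1.36), with 2701 and 2155 in control cells (-0.32). Targets with a reported HIF2 preference had 7 of 10 members above 0, a median of 0.09 (0.30 in control cells), and *NDRG1* as the member at 2-fold. *CCND1*, encoding cyclin D1, read 1460 and 1225 under the HIF2α-KD label (-0.25) and 674 and 1478 in control cells (1.11), so that the normoxic arrays were the ones furthest apart.

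Sterol synthesis was the list with the highest median on the HIF2α-KD arrays. All 19 kept members were above 0 in both pairs, with a median of 1.05 under the HIF2α-KD label and 0.61 in control cells, 18 of 19 had the larger difference in the HIF2α-KD pair (49.6% of all genes), and 10 reached 2-fold compared with 3 in control cells. *HMGCS1*, which makes HMG-CoA for the mevalonate pathway, read 2388 in normoxia and 10600.1 in hypoxia on the HIF2α-KD arrays (2.14) and 5577 and 10580 on the control arrays (0.92). *INSIG1*, the sterol-responsive inhibitor of SREBP processing, read 153 and 939 (2.50), with 475 and 1270 in control cells (1.39). *FDFT1*, squalene synthase, read 506 and 1611 (1.64), with 1023 and 1825 in control cells (0.83). In each of these 3 genes the array labelled HIF2α-KD in normoxia was the lowest of the 4, beside 30.7% of all genes. The gap between the lines was smaller in hypoxia than in normoxia. Naming members by the size of their difference itself favours this layout. Over the list, the median difference between HIF2α-KD and control was -0.60 in normoxia and -0.20 in hypoxia, and with control normoxia as the baseline the list median fell from 1.05 to 0.39.

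Other lipid genes and the amino acid stress response were mostly higher as well. The larger difference was in the HIF2α-KD pair for 7 of 14 fatty acid synthesis genes, which is near the 49.6% of all genes. It was so for 14 of 23 ATF4 targets. Of 14 fatty acid synthesis genes 13 were above 0 with a median of 0.55 (0.46 in control cells), and *FADS2*, the delta-6 desaturase, was at least 5.11-fold higher, from 16.3 to 105, with 30.1 and 188 in control cells. *ELOVL6*, a fatty acid elongase, had a difference of 1.65. Of 23 ATF4 targets 18 were above 0, with a median of 0.45 (0.15 in control cells), and 4 reached 2-fold. *FGF21*, a stress-induced hormone, read 53.8 and 465 on the HIF2α-KD arrays (2.78) and 368 and 1041 on the control arrays (1.46). *VLDLR*, a lipoprotein receptor, read 64.5 and 200 (1.42), with 290 and 298 in control cells (0.04). The ATF4 list was lower under the HIF2α-KD label at both oxygen levels, by a median of -0.71 in normoxia and -0.42 in hypoxia, and its direction turned to a median of -0.35 with control normoxia as the baseline. *DDIT3* and *PPP1R15A*, which act in stress-induced death and in recovery of translation, had 0.45 and 0.42 under the HIF2α-KD label but 1.57 and 1.38 in control cells. Endoplasmic reticulum chaperones were at a median of 0.04 (0.29 in control cells), with *ERO1A*, the oxidase of disulfide formation and a HIF target, as the member at 2-fold (1.45).

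The inhibitors of differentiation *ID1* and *ID3* and the ligand *BMP2* were also higher. *ID1*, a dominant-negative helix-loop-helix protein induced by BMP signals, read 238 and 1278 on the HIF2α-KD arrays (2.35) and 551 and 930 on the control arrays (0.74). *ID3* read 631 and 2235 (1.80), with 732 and 1335 in control cells (0.85). *BMP2*, a ligand of this pathway, read 335 and 1446 (2.06), with 725 and 1282 in control cells (0.81), and its 2 probe sets gave 2.06 and 2.08. For all 3 the array labelled HIF2α-KD in hypoxia was the highest of the 4 and the normoxic HIF2α-KD array the lowest. Naming genes by a large rise in this pair itself favours this layout. The normoxic HIF2α-KD array was the lowest for 30.7% of all genes. Over the 27 kept members of the TGF-β, activin and BMP list the median was 0.10 (0.35 in control cells), and these 3 genes were its members at 2-fold. *INHBA*, the activin A subunit, went the other way, with 3763 and 2060 under the HIF2α-KD label (-0.86) and 947 and 4923 in control cells (2.36). *BAMBI*, a decoy receptor of this family, had 0.18 against 0.85.

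The lowest-ranking gene was *NQO1*, the NRF2-regulated quinone reductase. It read 7803 in normoxia and 1173 in hypoxia under the HIF2α-KD label (-2.72) and 4488 and 1134 in control cells (-1.97), and its 3 probe sets gave -2.73 to -1.41. Both hypoxic arrays were thus at the same level and below both normoxic arrays. *PIR*, an iron-binding nuclear protein, followed the same course with 7441 and 2694 (-1.46), and 3945 and 1899 in control cells (-1.05). Among 17 NRF2 targets 13 were below 0 with a median of -0.13 (-0.21 in control cells), and *NQO1* and the thioredoxin reductase *TXNRD1* (-1.14) were the members at 2-fold. The glutathione genes *GCLC* and *GSR* had -0.97 and -0.95 under the HIF2α-KD label and -1.12 and -0.59 in control cells. *UGT1A6*, a glucuronosyltransferase of the same list, differed between the pairs: it read 150 and 170 under the HIF2α-KD label (0.17) and 164 and 33.6 in control cells (-1.86). *CIRBP*, a cold-inducible RNA-binding protein, was lower in hypoxia in both pairs, at -1.29 and -1.98, with all 5 of its probe sets below 0.

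**Figure D3:**
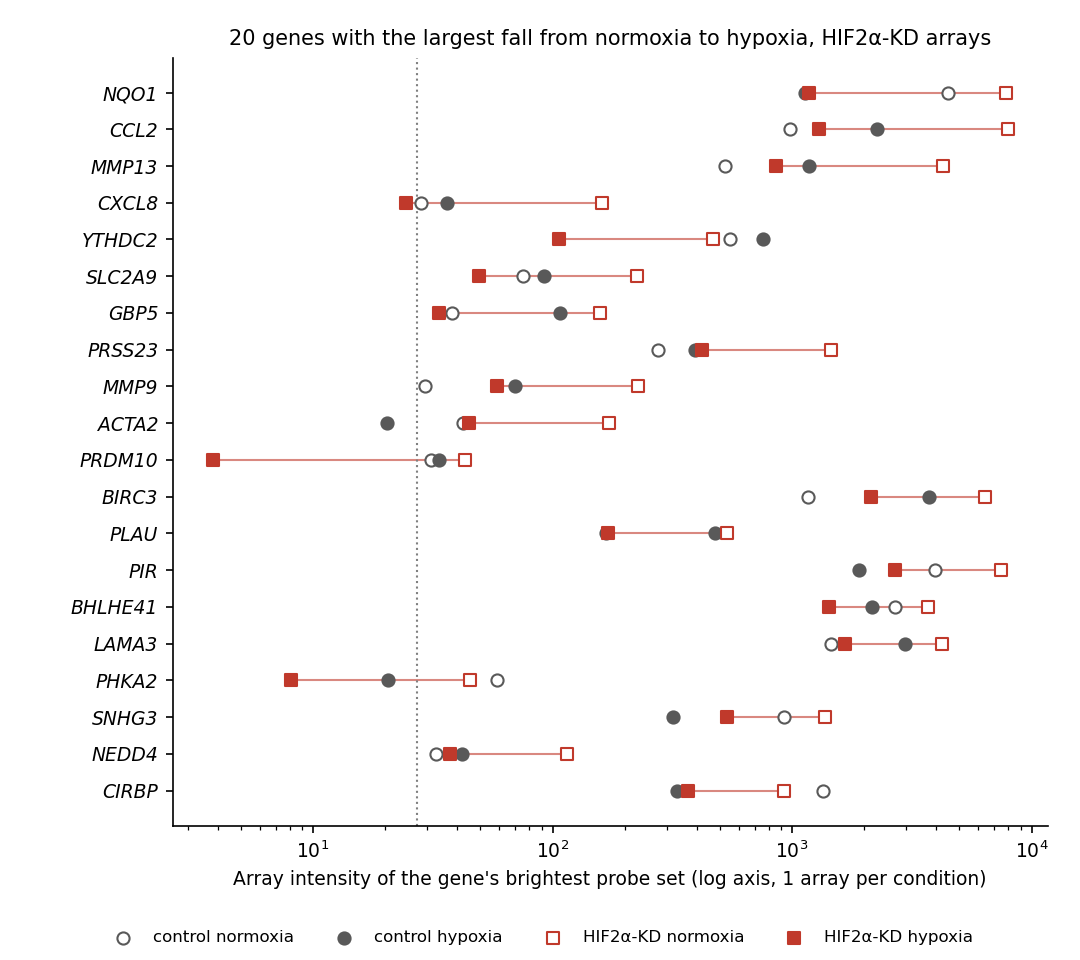
Array intensity (log axis, 1 array per condition) of the 20 genes with the lowest hypoxia difference on the HIF2α-KD arrays, with symbols as in the plot of the highest genes. For *NQO1*, *PIR*, *SNHG3* and *CIRBP* both filled symbols lie to the left of both open ones, whereas for *CCL2*, *MMP13*, *CXCL8*, *MMP9* and *PRSS23* the open square alone lies far to the right.

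A second set of low genes encodes inflammatory mediators and matrix proteases, and in the 4 genes given first the array labelled HIF2α-KD in normoxia was the highest of the 4. *CCL2*, a monocyte chemoattractant, read 7958 in normoxia and 1292 in hypoxia under the HIF2α-KD label (-2.61) and 982 and 2270 in control cells (1.20). *CXCL8*, a neutrophil chemokine, read 161 and 24.5 (-2.13), with 28.3 and 36.4 in control cells, so 3 of its arrays were close to background. *MMP13*, a collagenase, read 4263 and 860 (-2.29), with 526 and 1181 in control cells (1.14), and both its probe sets shared this direction. *BIRC3*, an NF-κB-induced inhibitor of apoptosis, read 6373 and 2127 (-1.58), with 1160 and 3735 in control cells (1.67). In all 4 the hypoxic HIF2α-KD value lay nearer to the control arrays than the normoxic HIF2α-KD value did. Choosing genes by their fall in the HIF2α-KD pair itself favours both layouts. The normoxic HIF2α-KD array was the highest of the 4 for 21.2% of all genes. With control normoxia as the baseline *CCL2* (0.39), *MMP13* (0.69) and *BIRC3* (0.87) turned to the higher side, and *CXCL8* was at -0.13.

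*NFKBIA*, the feedback inhibitor of NF-κB, read 1608 and 738 (-1.11), with 667 and 1555 in control cells (1.20), so its normoxic HIF2α-KD value was close to that of control hypoxia. *PLAU*, the urokinase plasminogen activator, read 535 and 170 (-1.57), with 168 and 476 in control cells (1.42), so its low values in the 2 lines came from opposite oxygen levels. *MMP9*, a gelatinase, read 228 and 58.9 (-1.70), with 29.3 and 69.7 in control cells, but its second probe set gave 0.02. *PRSS23*, a serine protease, read 1451 and 421 (-1.75), with 275 and 393 in control cells. Over the lists, 8 of 12 kept chemokines, cytokines and receptors were below 0 with a median of -0.33 (0.51 in control cells), 12 of 17 NF-κB genes with -0.15 (0.46 in control cells) and 8 of 13 matrix proteases and plasminogen genes with -0.15 (0.49 in control cells). Members at least 2-fold lower numbered 2, 2 and 4 in these lists, and none did so in control cells. In 17 of 17 NF-κB genes the HIF2α-KD difference was below the control difference, as it was for 50.4% of all genes. *ACKR3*, a scavenging chemokine receptor, was the exception at 2-fold higher, with 175 and 482 (1.38), and 23.1 and 413 in control cells (3.46).

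Leukocyte markers stayed near background while these genes differed. Of 6 such markers 4 lay above the reporters' 95th percentile on all arrays and *CD79A* on none, none exceeded 45.3 on any array, and their summed signal was 186 and 188 on the 2 HIF2α-KD arrays and 178 and 150 on the control arrays.

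Interferon-responsive genes lay on both sides of 0. Of 33 kept members 22 were above 0 with a median of 0.40, beside 0.07 in control cells, where 18 were above 0. *MX1*, an antiviral GTPase, read 581 and 925 under the HIF2α-KD label (0.66) and 699 and 381 in control cells (-0.85), and the ubiquitin-like *ISG15* read 3177 and 4923 (0.63), with 4344 and 3036 in control cells (-0.51). *DDX60* was the member at least 2-fold higher (1.37, and 1.44 in control cells). The members at least 2-fold lower were guanylate-binding proteins, with *GBP5* at 158 and 33.6 (-1.81), and 37.9 and 108 in control cells (1.20), and *GBP1* at 74.1 and 28.4 (-1.02), with 31.1 and 33.8 in control cells. *ISG20* read 137 and 253 (0.81), and 70.4 and 469 in control cells (2.49).

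The epithelial programme that the study follows gave mostly small differences on the HIF2α-KD arrays, with *CDH1* as an exception. *CDH1*, encoding E-cadherin, was not above background in normoxia at 18.9 and read 81.4 in hypoxia, at least 3.95-fold higher, beside 15.5 and 119 in control cells. Its single kept probe set is dim on all arrays, although E-cadherin is a defining protein of this line. *CTNNB1*, encoding β-catenin, read 8502 and 7808 (-0.12), with 8014 and 9068 in control cells (0.18). *TJP1*, encoding the tight junction scaffold ZO-1, had 0.18 against 0.39. Of 25 adherens junction genes 14 were above 0 with a median of 0.12 (0.44 in control cells), and *CDH1* was the member at 2-fold. Among 17 tight junction genes the median was 0.00 (0.05 in control cells), and *F11R*, the adhesion molecule JAM-A, was the member at 2-fold, with 69.2 and 171 (1.13) against 43.8 and 230 in control cells (2.04).

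*DOCK4*, the Rac activator on which the study centres, did not reach the intensity filter and read 1.26 to 8.92 on the 4 arrays, so no difference can be read for it. *RAC1* read 9249 and 8435 (-0.13) and *PAK1* 302 and 275 (-0.13) on the HIF2α-KD arrays. None of 25 Rac and Dock genes reached 2-fold, and their median was -0.06 (0.13 in control cells). Among the transcription factors of epithelial to mesenchymal transition, *SNAI2* read 1218 and 1266 under the HIF2α-KD label (0.05) and 542 and 2739 in control cells (2.31). *ZEB1* read 79.4 and 28.3 (-1.11), with 11.9 and 34.4 in control cells (0.85), and *SNAI1* and *ZEB2* were below the filter. *VIM*, encoding vimentin, had -0.04 and 0.03. The 14 kept genes of this list had a median of 0.01 under the HIF2α-KD label and 0.76 in control cells, and all 14 had the lower difference in the HIF2α-KD pair (50.4% of all genes). *TGFBI*, a matrix protein induced by TGF-β, was the member at least 2-fold higher, with 465 and 1076 (1.18), and 284 and 911 in control cells (1.63).

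Basement membrane, collagen and integrin genes had a median of -0.15 (0.23 in control cells), with 17 of 27 below 0. *LAMA3*, the laminin-332 α chain, was the member at 2-fold, with 4243 and 1661 (-1.34), and 1458 and 2967 in control cells (1.02). Its partner chain *LAMB3* (-0.69), the integrin *ITGB4* (-0.80) that binds this laminin, *ITGB6* (-0.75) and the perlecan gene *HSPG2* (-0.81) were on the same side. Among 19 YAP and SRF targets 11 were below 0 with a median of -0.24 (0.36 in control cells). *ACTA2*, smooth muscle actin, read 173 and 45.0 (-1.63), with 42.3 and 20.3 in control cells, and *ANKRD1*, a YAP target, read 1940 and 1511 (-0.36), with 517 and 2755 in control cells (2.38).

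Growth and housekeeping genes gave small values. None of 34 cell cycle and DNA replication genes reached 2-fold, and their median was -0.03 (-0.08 in control cells), with *CDKN1A*, the p21 cell cycle inhibitor, as the lowest at -0.64 (0.98 in control cells). Cytosolic ribosomal proteins had a median of -0.02 over 51 genes. Mitochondrial ribosomal proteins had 37 of 68 above 0 with a median of 0.02, whereas in control cells 15 were above 0 with a median of -0.14. *TBP*, the reference gene of the study's PCR, read 566 and 533 (-0.09). The 9 reference genes had a median of -0.07 and ranged from -0.47 for *ACTB*, read by a dim probe set, to 0.63 for *HPRT1*.

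**Figure D4:**
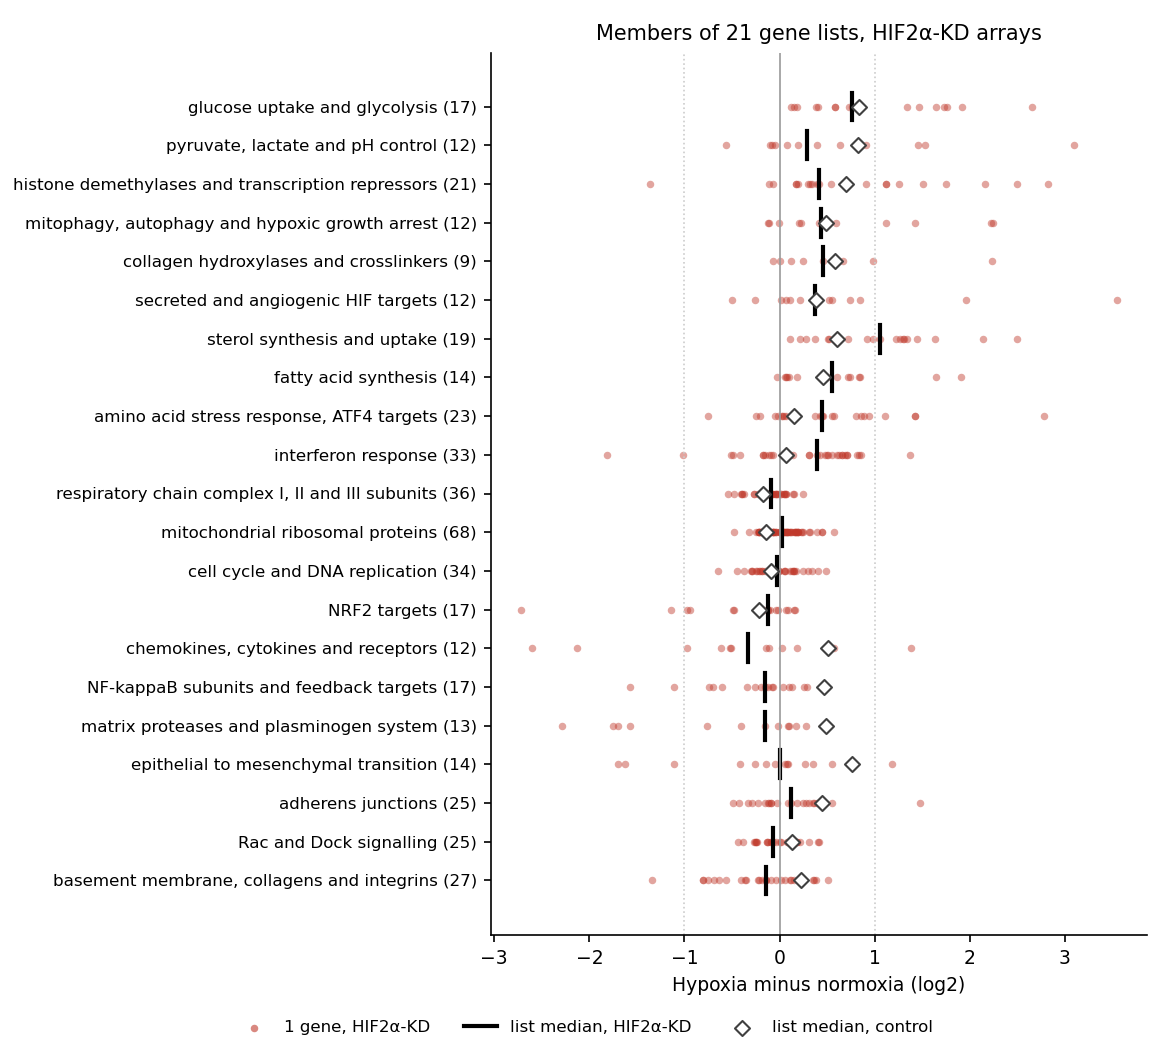
Hypoxia difference on the HIF2α-KD arrays (log2) for the kept members of 21 gene lists, with the number of members in brackets, 1 point per gene, a bar at the list median and a diamond at the median of the same list in the control pair. Bar and diamond lie together for glycolysis (0.77 and 0.84), the bar lies to the right for sterol synthesis (1.05 and 0.61), and the 2 lie on opposite sides of 0 for chemokines (-0.33 and 0.51), NF-κB genes and matrix proteases.

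The HIF2α-KD pair and the control pair share no array, so their differences can be set side by side. Of the 135 genes higher on the HIF2α-KD arrays, 86 were at least 2-fold higher in control cells too, beside 3.04% of all genes. This is 63.7% of the 135 and 29% of the 297 control genes. A further 45 had the same sign, 4 had the opposite sign, and none was 2-fold lower in control cells. Of all genes 53.2% were above 0 in control cells. The median difference of the 135 genes was 1.34 in both pairs, and both hypoxic arrays lay above both normoxic arrays for 127 of them (27.1% of all genes). The rule that chose them uses the HIF2α-KD pair, so only the control side of these counts is independent. The 297 control genes had a median of 1.31 in control cells and 0.67 under the HIF2α-KD label, where 258 were above 0.

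Of the 41 lower genes, 11 were at least 2-fold lower in control cells too, beside 0.543% of all genes. This is 26.8% of the 41 and 20.8% of the 53 control genes. The overlaps of the higher and lower genes are not ranked, since the share of all genes differs between the directions. Of the remaining genes 10 shared the sign and 20 had the opposite sign, which is near the share of all genes above 0 in control cells (53.2%). Of these 20, 8 were at least 2-fold higher in control cells, beside 3.04% of all genes. The median of the 41 was -1.29 under the HIF2α-KD label and -0.06 in control cells, and both hypoxic arrays lay below both normoxic arrays for 19 of them (22.6% of all genes). The array labelled HIF2α-KD in normoxia was the highest of the 4 for 36 of the 41 (21.2% of all genes) and the lowest for 100 of the 135 higher genes (30.7% of all genes), a layout that the choice of these genes itself favours. Set against control normoxia instead, the array labelled HIF2α-KD in hypoxia was at least 2-fold different in the same direction for 73 of the 135 and 9 of the 41. With 1 array per condition, the cell line and the single normoxic array cannot be told apart.

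**Figure D5:**
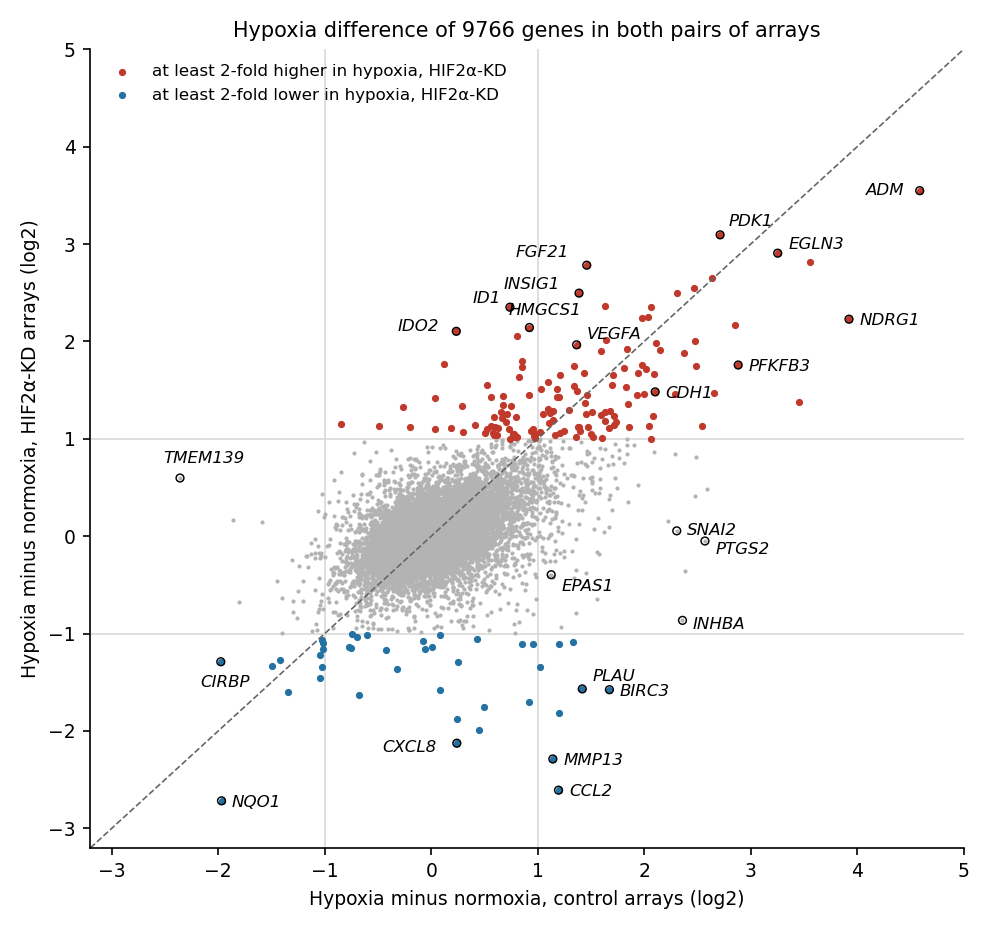
Hypoxia difference on the HIF2α-KD arrays against that on the control arrays (log2, 1 point per gene, 9766 genes), with genes at least 2-fold higher under the HIF2α-KD label in red, those at least 2-fold lower in blue, grey lines at 2-fold and a dashed line of equality. The HIF targets *PDK1* and *EGLN3* lie near the line at the top right, *ADM* lies further off it at 3.55 and 4.59, *NQO1* and *CIRBP* lie below 0 in both pairs, and *CCL2*, *MMP13*, *PLAU* and *BIRC3* lie at the lower right.

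Over the 9766 genes the 2 hypoxia differences had a Pearson's r of 0.53 and a rank correlation of 0.46. This is a description across genes, which are not independent replicates and share their probe sets between the pairs. The genes furthest above the control difference were led by *TMEM139*, which read 64.1 and 105 under the HIF2α-KD label (0.60) and 98.9 and 6.39 in control cells. Its control hypoxia value lay below that array's reporter 95th percentile of 25.0, and 1 kept probe set reads it. *IDO2*, an indoleamine dioxygenase, read 148 and 689 (2.10), with 631 and 745 in control cells (0.24), and 1 of its 4 probe sets gave -0.32. *CYP4A11*, a fatty acid hydroxylase, read 88.1 and 339 (1.77), with 261 and 286 in control cells (0.12). *EFEMP1*, a fibulin, read 57.0 and 167 (1.33), with 259 and 213 in control cells (-0.26). For these last 3 the normoxic HIF2α-KD array was the lowest of the 4, a layout that choosing genes by this difference itself favours.

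The genes furthest below the control difference were *CCL2* (-3.80), *MMP13* (-3.43), *BIRC3* (-3.25) and *INHBA* (-3.22), where each value is the HIF2α-KD difference minus the control difference. *PTGS2*, encoding cyclooxygenase-2, belongs with them: it read 6408 and 6191 on the HIF2α-KD arrays (-0.05) and 2003 and 11974 on the control arrays (2.57). *YTHDC2*, an RNA helicase, differed from the rest of this group, since its hypoxic HIF2α-KD value of 106 was the one apart from the other 3 (470 in HIF2α-KD normoxia, 551 and 758 in control cells). It is read by 1 probe set. None of these differences between the pairs was tested, since neither pair has a replicate.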

How the data were processed

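RNA from 4 cultures, 1 per condition, was hybridised to Affymetrix canine arrays. Per the labels, biotin-labelled cRNA was made with a 3' expression kit, and the authors deposited 1 table of 42924 probe set intensities on a linear scale. How probes were summarized, corrected for background and scaled, with which software and against which genome build, is not given in the sources used here. Of the probe sets 29254 carry 1 gene symbol in the platform annotation (94.6% of them matched a RefSeq gene), 439 carry several and 13167 none, and only the first were named. The brightest represents its gene, and 4915 of the kept genes have 2 or more kept probe sets.

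From the deposited intensities, log2(intensity + 16) was taken and hypoxia minus normoxia was computed per pair in Python 3.11.15 (numpy 2.4.6, pandas 2.3.3). A fold is 2 to the power of this difference and understates dim genes. Where 1 array of the pair lay below the reporters' 95th percentile, the fold was computed against that percentile and is given as a lower bound. On simulated intensities all 200 altered genes were recovered at 2-fold or more with the right sign. The changes were written on the same log2 scale to a copied array without noise. This recovery therefore checks the computation only and says nothing of the spread of the real arrays. Normalization alternatives used limma 3.58.1 in R 4.3.3. Members and the 43 gene lists were chosen with earlier results of these data known, so no list is independent evidence.

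Named are genes the study names, the 20 with the largest difference in each direction, up to 6 members per list and others whose 4 values show how a list stands, genes 2-fold different in opposite directions between the pairs, and the 10 on each side with the largest difference between the pairs. Alternatives were pseudocounts of 1 and 64, no filter, a filter at the 75th percentile, quantile, cyclic loess and median scaling, averaging the probe sets of a gene, all probe sets and a 1.5-fold limit. Chosen after seeing the data were control normoxia as the baseline, genes with every probe set in 1 direction, and genes at 100 or more on an HIF2α-KD array. A planned search of promoters for the hypoxia response element was not run, since no promoter sequences were used here.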

Additional observations from a re-analysis of the deposited data

Results flagged for a closer look

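Of the 41 genes at least 2-fold lower in hypoxia on the HIF2α-KD arrays, 8 were at least 2-fold higher in hypoxia on the control arrays. The share over all genes was 3.04%. With 1 array per condition the difference between the pairs was not tested for any of them. The HIF2α-KD difference minus the control difference was -3.80 for *CCL2*, -3.43 for *MMP13*, -3.25 for *BIRC3*, -3.01 for *GBP5*, -2.99 for *PLAU*, -2.41 for *BCAR3*, -2.36 for *LAMA3* and -2.31 for *NFKBIA*, on the log2 scale. *BCAR3*, a signalling adaptor, read 310 in normoxia and 138 in hypoxia under the HIF2α-KD label and 103 and 283 in control cells. In all 8 the array labelled HIF2α-KD in normoxia was the highest of the 4. The choice of these genes allows only this array or control hypoxia as the highest. It likewise allows only control normoxia or HIF2α-KD hypoxia as the lowest.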

How the results depend on the processing

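The HIF2α-KD arrays gave 176 genes at 2-fold, 135 higher and 41 lower. With a pseudocount of 1 there were 336 (234 higher, 102 lower), with a pseudocount of 64 there were 98 (75 and 23), over all kept probe sets 342 (255 and 87), and at 1.5-fold 797 (534 and 263). The filter at the 75th percentile left 23 lower genes. Quantile, cyclic loess and median scaling kept 123, 126 and 131 of the 135 and all 41 of the 41, and in no setting did the median of all genes move by over 0.1. Averaging the probe sets of a gene kept 108 and 32.

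List medians that moved by more than the spread between probe sets were, with the 75th percentile filter, glycolysis 1.02, immediate-early genes 0.756, renal tubule genes 0.441, matrix proteases -1.17 and NF-κB genes -0.61. With genes at 100 or more on an HIF2α-KD array they were pyruvate and lactate genes 0.651, immediate-early genes 0.43, clock genes 0.363, NF-κB genes -0.61 and matrix proteases -1.17. Averaging probe sets gave 1.02 for glycolysis, and no filter gave 0.0901 for secreted factors and -0.0719 for chemokines.

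With control normoxia as the baseline in place of the array labelled HIF2α-KD in normoxia, chemokines (0.238) and ATF4 targets (-0.353) turned sign among the lists with a median of at least 0.3 in size. Sterol genes had 0.39, fatty acid genes 0.182, pyruvate and lactate genes 0.574, NF-κB genes 0.133, mesenchymal transition genes 0.423 and renal tubule genes 0.173. The genes at 2-fold, named or in a list, that turned sign were *ZEB1* (0.665), *CCL2* (0.39), *MMP13* (0.693), *PRSS23* (0.587), *MMP9* (0.727), *ACTA2* (0.0653), *BIRC3* (0.866), *PLAU* (0.0147), *LAMA3* (0.186), *NEDD4* (0.131), *NFKBIA* (0.142), *BCAR3* (0.368), *EFEMP1* (-0.587), *CHAC1* (-0.589), *VLDLR* (-0.504) and *NFIL3* (-0.369). None of these or the other named or listed genes at 2-fold turned sign under another alternative in which it was kept. The cause of these changes was not tested. No paired analysis was possible because each condition has 1 array. Leaving out a replicate was not possible for the same reason. Signal near background limits *EPAS1*, *CDH1*, *DOCK4* and *NDRG1*, among others. For 22 of the 135 higher genes the normoxic HIF2α-KD value lay below the reporters' 95th percentile. For 7 of the 41 lower genes the hypoxic HIF2α-KD value did.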

Other observations

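Further gene groups were described on the HIF2α-KD arrays. Immediate-early genes had a median hypoxia difference of 0.11 over 14 members, with 10 above 0 and a control median of 0.57. *FOS*, a subunit of AP-1, read 482 in normoxia and 1141 in hypoxia under the HIF2α-KD label (1.22), with 1081 and 1718 in control cells (0.66), whereas the stress-induced phosphatase *DUSP1* read 503 and 519 (0.04), with 351 and 1114 in control cells (1.62). Of the EGF receptor family and its feedback regulators, *ERRFI1*, an inhibitor of this receptor, read 1277 and 5111 (1.99), with 2469 and 10685 in control cells (2.11). *EGFR* itself read 1237 and 1042 (-0.24), with 646 and 1356 in control cells (1.05), and the list median was -0.02 over 13 members. Among 12 genes of iron handling the median was -0.04, and *TFRC*, the transferrin receptor and a HIF target, read 40.1 and 172 (1.74), with 31.9 and 252 in control cells (2.48).

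Clock genes had a median of 0.10 over 9 members, with *NFIL3*, a clock-linked repressor, at 562 and 1365 (1.26). Wnt genes had 15 of 18 above 0 with a median of 0.13, and none reached 2-fold. The largest of them was *MYC* at 391 and 766 (0.94), with 654 and 1136 in control cells (0.78). The heat shock list had a median of 0.11 and was led by *HSPH1* (0.84, and 1.46 in control cells). Polarity genes (0.00), desmosome and keratin genes (-0.06) and renal tubule genes (-0.08) had medians near 0. In the last list *WNK4*, a kinase of distal tubule salt transport, read 101 and 41.9 (-1.02), with 79.4 and 46.9 in control cells (-0.60).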
